A study of Mus musculus with 16 samples.

Results

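Cholesterol synthesis in mouse liver is described here through 7 transcripts: the regulator Srebf2 and the enzymes Hmgcs1, Idi1, Fdps, Sqle, Lss and Cyp51. They were taken by symbol from 35275 genes of a deposited liver RNA-seq table, and all 7 were among the 11298 genes whose level was high enough to test. The list holds the synthesis side of the pathway, and receptors and other genes of lipoprotein uptake are described from a separate list. RNA was measured in whole liver of mice with an intact Zfp36l1 gene (WT) and of mice with a liver-specific knockout of Zfp36l1 (LKO). Mice of each genotype received control food or an ethanol diet, which gave 4 groups of 4 libraries: WT control, WT ethanol, LKO control and LKO ethanol. Zfp36l1 encodes an RNA-binding protein that binds AU-rich elements in 3′ untranslated regions and promotes decay of the bound mRNA. The labels used here give no Cre driver, strain, sex, age, diet composition or feeding time. They also do not say that libraries of a group came from separate animals, so p-values measure the spread between these libraries, which may be technical.

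Hepatocytes make cholesterol from acetyl-CoA through mevalonate, isoprenoids, squalene and lanosterol. SREBP-2, the product of Srebf2, is held in the endoplasmic reticulum by SCAP and INSIG proteins while sterol is plentiful. When sterol falls, it is cut in the Golgi, enters the nucleus and raises transcription of almost every enzyme of the route and of lipoprotein uptake genes, by binding sterol regulatory elements beside CCAAT and GC-rich boxes.

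RefSeq promoters on GRCm38.p6 (250 bases before to 50 after the start) were at hand for 5 of the 7 genes: Srebf2, Hmgcs1, Idi1, Lss and Cyp51. Promoters of Srebf2 and Hmgcs1 are printed because they were the 2 of 5 that held the sterol regulatory element core TCACCCCA, searched on both strands. Capitals mark that core and each CCAAT box, which reads ATTGG on the opposite strand. They lie at chr15:82147019-82147318 (plus strand) for Srebf2 and chr13:119690101-119690400 (plus strand) for Hmgcs1.
Srebf2: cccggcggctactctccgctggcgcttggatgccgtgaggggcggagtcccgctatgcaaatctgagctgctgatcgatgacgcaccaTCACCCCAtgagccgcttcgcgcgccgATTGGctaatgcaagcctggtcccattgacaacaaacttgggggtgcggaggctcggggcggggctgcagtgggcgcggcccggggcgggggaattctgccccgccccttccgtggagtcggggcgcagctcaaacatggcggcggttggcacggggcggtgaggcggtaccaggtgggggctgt
Hmgcs1: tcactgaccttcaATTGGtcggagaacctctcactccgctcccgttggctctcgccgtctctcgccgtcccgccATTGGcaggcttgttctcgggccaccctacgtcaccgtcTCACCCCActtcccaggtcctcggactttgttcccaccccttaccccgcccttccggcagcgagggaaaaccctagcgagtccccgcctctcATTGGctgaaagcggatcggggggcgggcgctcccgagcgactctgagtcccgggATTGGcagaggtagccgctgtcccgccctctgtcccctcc
The core began 162 bases before the start in Srebf2 and 137 bases before it in Hmgcs1. Of 32851 RefSeq promoters of that length, 1.56% held the core on either strand. CCAAT was found in 5 of the 5 promoters against 37.4% of all promoters, and the GC box GGGCGG in 5 of 5 against 35.7%. No match overlapped a match of another motif, and each match describes letters, not binding.

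Levels are FPKM (sequenced fragments relative to gene length and library size) as deposited. Total reads per library, recovered from the steps of the FPKM values, ran from 19069903 to 24768569 in 15 libraries and came to 9890475 in WT ethanol library 2. That library stood apart: 22.52% of its reads were mitochondrial against 3.64% to 6.973% in the others, and its rank correlation with the others was 0.664 to 0.721 against 0.858 to 0.985 among them. Its summed cholangiocyte markers were 74.98 FPKM against 13.75 to 21.05 in the other WT ethanol libraries, and its summed markers of stellate cells (14.11 against 117.5 to 175.5 FPKM), endothelium (13.13 against 50.52 to 80.0) and Kupffer cells (93.16 against 145.3 to 288.9) were lower. Its summed hepatocyte markers, 61670 FPKM, lay within the 43060 to 71840 of those libraries, and the part of these markers in the results was not tested. For the 7 genes, calls that changed without this library are given both ways. Zfp36l1 itself lay between 9.299 and 25.54 FPKM in the WT libraries and between 0.572 and 1.759 FPKM in the LKO libraries, so every library matched its genotype label. Summed hepatocyte markers were 43060 to 72500 FPKM over all libraries, and none of the 6 hepatocyte markers was at 0. Within the groups, the first principal component of 15 libraries put libraries 1 and 2 on one side and libraries 3 and 4 on the other (in WT ethanol, library 1 against libraries 3 and 4), a split the labels do not name. With all 16 libraries the same component divided the ethanol groups otherwise (WT ethanol library 2 against the rest, and LKO ethanol libraries 1 and 3 against 2 and 4), so in the ethanol groups the split rests on leaving that library out, while both control groups divided alike either way. In whole liver, fewer cells of a type and less RNA per cell cannot be told apart.

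The ethanol diet was compared with the control diet in WT mice, which addresses the diet response with Zfp36l1 present. In WT liver, Hmgcs1 and Idi1 fell on ethanol, to levels 4.15-fold and 5.52-fold below the control means. Without WT ethanol library 2 their ethanol means were 30.07 and 7.094 FPKM, against control means of 107.4 and 30.06 FPKM. In a limma fit of the 2 WT groups alone neither was called (adjusted p = 0.0645 and 0.13). The other 5 genes had lower means on ethanol but did not pass the test. Differences are log2 fold changes of FPKM + 1 from limma across all genes, called at a Benjamini-Hochberg adjusted p under 0.05. These were 2 of 7 genes called, against 4.18% of all 11298 genes called in this comparison. All 7 differences were negative, with a median of -1.28 against -0.02 for all genes tested, and 6 of the 7 had an unadjusted p under 0.05, as did 2225 of all 11298 genes.

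Srebf2 (chr15:82147181-82205379, plus strand, GRCm38) makes the precursor of SREBP-2 and, in an intron, carries the microRNA gene Mir33. In WT control libraries 1 to 4 it stood at 15.07, 9.09, 16.03 and 15.12 FPKM, and in WT ethanol libraries at 8.03, 4.03, 14.14 and 11.77 FPKM. Control library 2 lay well below its group, inside the range of the ethanol libraries, so the groups overlapped. On the log2 scale the difference was -0.59 (SE 0.34, adjusted p = 0.361), and -0.27 (adjusted p = 0.591) without WT ethanol library 2. In LKO control libraries Srebf2 stood at 6.83, 9.64, 11.71 and 11.18 FPKM, and in LKO ethanol libraries at 5.30, 10.05, 9.87 and 14.33 FPKM. These ranges overlapped almost fully, with a log2 difference of -0.04 (adjusted p = 1.0).

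Hmgcs1 (chr13:119690379-119708260, plus strand), whose promoter with the sterol element is shown above, makes cytosolic HMG-CoA synthase, the enzyme that forms HMG-CoA from acetoacetyl-CoA. It stood at 177.7, 96.36, 64.52 and 91.24 FPKM in WT control libraries and at 34.89, 13.29, 28.29 and 27.03 FPKM in WT ethanol libraries. Every ethanol library lay below every control library. The group means were 107 ± 48.8 and 25.9 ± 9.07 FPKM (SD, n = 4), and the log2 difference was -1.99 (SE 0.448, adjusted p = 0.0207). Among all genes tested, 4.45% were likewise lower on ethanol with no overlap. Without WT ethanol library 2 the difference was -1.71 (adjusted p = 0.025). The call was lost without WT control library 1, 2 or 4, with adjusted p of 0.0766, 0.0593 and 0.0561. Over all alternatives the adjusted p ran from 0.00779 to 0.0766, and 22 of 27 kept it under the threshold.

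Idi1 (chr13:8885501-8892451, plus strand) makes isopentenyl-diphosphate isomerase, which interconverts the 2 five-carbon units from which isoprenoids are built. It stood at 42.77, 44.53, 10.6 and 22.32 FPKM in WT control libraries and at 13.21, 0.434, 5.01 and 3.07 FPKM in WT ethanol libraries. Ethanol library 1 lay above control library 3, so the groups overlapped, while the other 3 ethanol libraries lay below all controls. The means were 30.1 ± 16.4 and 5.43 ± 5.51 FPKM (SD, n = 4), with a log2 difference of -2.52 (SE 0.59, adjusted p = 0.0241). WT ethanol library 2 held 13 Idi1 reads, against at least 185 in each of the other libraries, and without it the difference was -1.95 (adjusted p = 0.0313). Leaving out WT control library 1, 2 or 4, or WT ethanol library 4, gave adjusted p of 0.085, 0.0865, 0.0617 and 0.0605. Over all alternatives the adjusted p ran from 0.00494 to 0.13, and 20 of 26 kept the call. Idi1 has a close paralog, Idi2, and how reads shared with a copy were counted is not given in the sources used here.

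Fdps (chr3:89093588-89101959, minus strand) makes farnesyl diphosphate synthase, at the branch between sterols and other isoprenoids. It stood at 225.6, 345.0, 105.0 and 194.4 FPKM in WT control libraries and at 110.6, 218.1, 46.62 and 30.33 FPKM in WT ethanol libraries. The groups overlapped, and WT ethanol library 2, the lowest of its group for Srebf2, Hmgcs1, Idi1, Sqle and Lss, was the highest of its group for Fdps. With it the log2 difference was -1.37 (SE 0.567, adjusted p = 0.191). Without it Fdps fell by 1.87 on the log2 scale (adjusted p = 0.0353), and the WT ethanol mean was 62.5 ± 42.4 FPKM (SD, n = 3). In that fit 3 of 7 genes were called (Hmgcs1, Idi1 and Fdps), against a background of 9.27% of 11170 genes.

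Sqle (chr15:59315077-59331192, plus strand) makes squalene epoxidase, which adds the first oxygen of the sterol route. Its WT control values were 33.02, 25.24, 9.59 and 22.58 FPKM and its WT ethanol values 24.56, 3.98, 8.90 and 10.42 FPKM. The ranges overlapped, with ethanol library 1 among the controls. The log2 difference was -0.99 (SE 0.46, adjusted p = 0.247), and -0.61 without WT ethanol library 2 (adjusted p = 0.394).

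Lss (chr10:76531588-76557138, plus strand) makes lanosterol synthase, which closes the sterol rings. Its WT control values were 8.68, 9.77, 5.09 and 11.05 FPKM and its WT ethanol values 2.88, 1.07, 5.54 and 4.09 FPKM. Only ethanol library 3 and control library 3 crossed. Lss had a log2 difference of -1.21 (SE 0.389, adjusted p = 0.0902), and -0.89 (adjusted p = 0.135) without WT ethanol library 2. Quantile normalization gave -1.25 (adjusted p = 0.0334) and median-of-ratios factors -1.27 (adjusted p = 0.0377), so the call for Lss depended on the scaling.

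Cyp51 (chr5:4081145-4104746, minus strand) makes lanosterol 14-demethylase, the first step after ring closure. Its WT control values were 88.66, 70.41, 28.92 and 45.77 FPKM and its WT ethanol values 56.58, 21.43, 15.46 and 11.15 FPKM. Ethanol library 1 lay inside the control range and the other 3 below it. With all libraries the log2 difference was -1.28 (SE 0.438, adjusted p = 0.11), and without WT ethanol library 2 it was -1.28 (adjusted p = 0.0978). Without ethanol library 1, the highest of its group, Cyp51 fell by 1.73 (adjusted p = 0.0138), where 930 of all 11237 genes were called. Over all alternatives the adjusted p ran from 0.0138 to 0.347, and 2 of 27 lay under the threshold. Cyp51 overlaps Akap9 on the opposite strand, Hmgcs1 and Lss each overlap an antisense gene, and Idi1 overlaps an unconfirmed gene, Gm48574, on the opposite strand. Whether reads were assigned by strand is not given in the sources used here. On their own strand, Fdps overlaps a predicted protein-coding gene, Gm43738, and Srebf2 an unconfirmed gene, Gm49502. Counts of both are therefore uncertain under either strand setting.

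**Figure D1:**
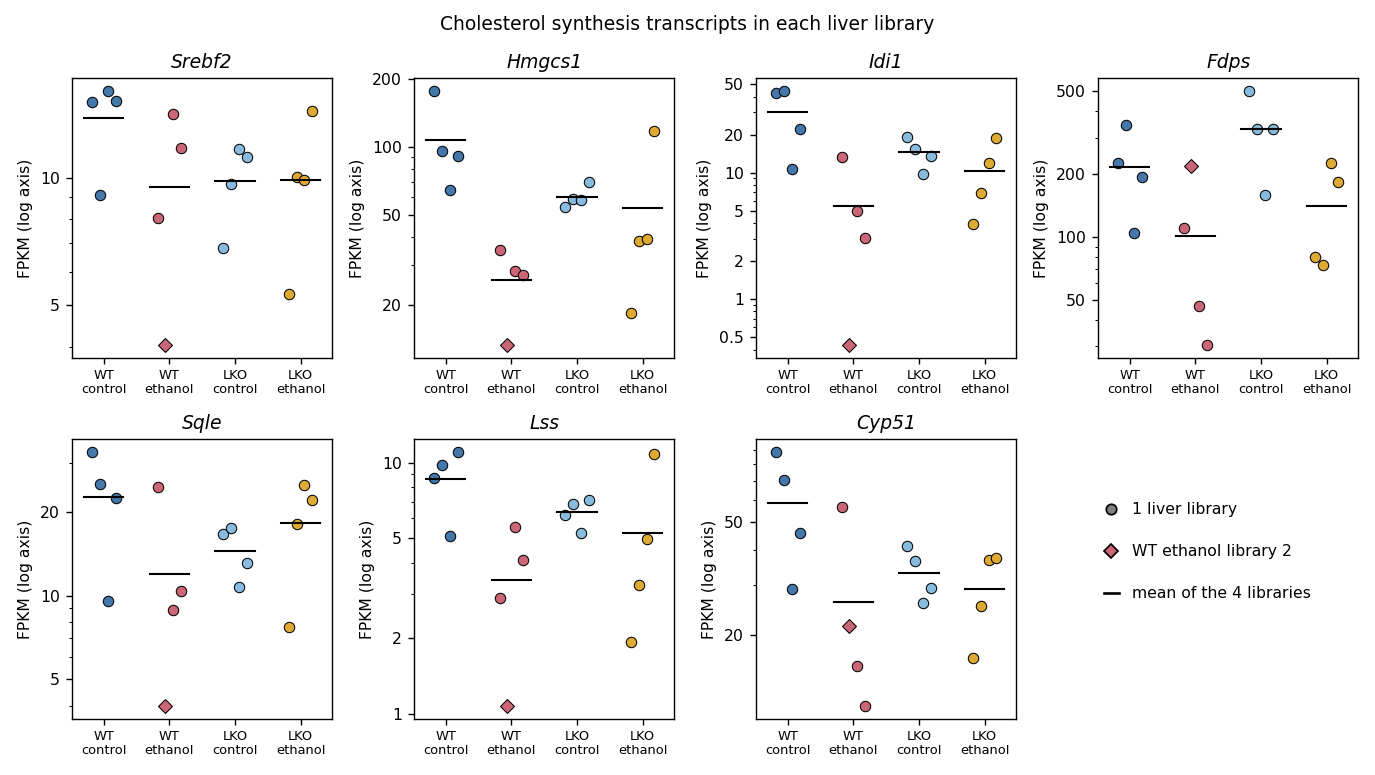
FPKM of each of the 7 transcripts (log axis) in the 16 libraries, by group, with each point 1 library, the diamond WT ethanol library 2 and each line the mean of 4 libraries. Hmgcs1 is the transcript whose 4 WT ethanol libraries (13.29 to 34.89 FPKM) all sit below the 4 WT control libraries (64.52 to 177.7 FPKM), while LKO ethanol libraries spread from 18.49 to 118.3 FPKM.

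In LKO liver, the same diet comparison called none of the 7 genes, with 1 of 7 at an unadjusted p under 0.05, as had 1038 of all 11298 genes. Here 0.425% of all genes were called. The differences were negative for 6 of 7 genes, with a median of -0.42 against 0.06 for all genes. No gene had groups without overlap, against 4.14% of all genes lower on ethanol with no overlap.

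Fdps had the most negative difference in LKO liver. It stood at 503.4, 328.0, 159.1 and 331.3 FPKM in LKO control libraries and at 79.73, 73.46, 227.1 and 182.6 FPKM in LKO ethanol libraries. Ethanol libraries 1 and 2 lay below all controls, while 3 and 4 lay within their range. Fdps had a log2 difference of -1.28 (SE 0.567, adjusted p = 0.494).

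Hmgcs1 stood at 54.44, 58.91, 58.38 and 69.71 FPKM in LKO control libraries and at 18.49, 38.27, 39.3 and 118.3 FPKM in LKO ethanol libraries. The controls lay close together (60.4 ± 6.55 FPKM, SD, n = 4). Ethanol libraries 1 to 3 lay below them and library 4 above them, and the log2 difference was -0.48 (SE 0.448, adjusted p = 0.884).

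Idi1 stood at 19.25, 15.29, 9.82 and 13.56 FPKM in LKO control libraries and at 3.93, 6.95, 11.99 and 18.66 FPKM in LKO ethanol libraries. Ethanol libraries 1 and 2 were below all controls and libraries 3 and 4 within their range. Idi1 had a log2 difference of -0.59 (SE 0.59, adjusted p = 0.907).

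For Sqle, LKO control libraries held 16.75, 17.5, 10.72 and 13.13 FPKM and LKO ethanol libraries 7.70, 18.1, 24.98 and 22.14 FPKM. Sqle was the member with a positive difference, 0.22 (adjusted p = 0.991), since 3 of 4 ethanol libraries exceeded every control and library 1 lay below them.

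Lss stood at 6.18, 6.85, 5.25 and 7.08 FPKM in LKO control libraries and at 1.94, 3.25, 4.98 and 10.8 FPKM in LKO ethanol libraries. Its ethanol libraries 1 to 3 were below every control and library 4 above, with a log2 difference of -0.42 (adjusted p = 0.881).

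Cyp51 stood at 41.07, 36.3, 25.88 and 29.29 FPKM in LKO control libraries and at 16.54, 25.23, 36.75 and 37.32 FPKM in LKO ethanol libraries. The ranges overlapped, with ethanol libraries 1 and 2 below every control, and the log2 difference was -0.24 (adjusted p = 0.985).

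The LKO ethanol libraries lay on both sides of the LKO controls. Averaged over the 7 genes after scaling each to mean 0 and SD 1 over the 16 libraries, they stood at -1.26, -0.38, 0.18 and 0.75 SD, against 0.31, 0.34, -0.06 and 0.30 SD in LKO control libraries. Library 1 was the lowest of the LKO libraries and library 4 the highest. The split within the groups, as found over 15 libraries, puts libraries 1 and 2 apart from 3 and 4. Between libraries 1 and 2, all 7 ethanol differences in LKO were negative (-2.39 to -0.13), and between libraries 3 and 4, 1 of 7 was (-0.17 to 0.93). In WT all 7 were negative on both sides, from -1.88 to -0.23 with 1 ethanol library on the first side and from -1.9 to -0.25 on the other. These within-side differences, with at most 2 libraries a group on a side, are given without a test. The sides were drawn from the same expression values, members included, so these counts cannot show a difference between the genotypes. The mitochondrial share of reads moved with the sides: it was 6.663% and 5.571% against 4.051% and 4.062% in WT control, 6.973% against 3.64% and 3.831% in WT ethanol, 6.207% and 4.7% against 3.802% and 4.122% in LKO control, and 6.312% and 5.193% against 4.747% and 4.486% in LKO ethanol. In each group libraries 1 and 2 (library 1 alone in WT ethanol) had the higher share, and its part in these differences was not tested.

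**Figure D2:**
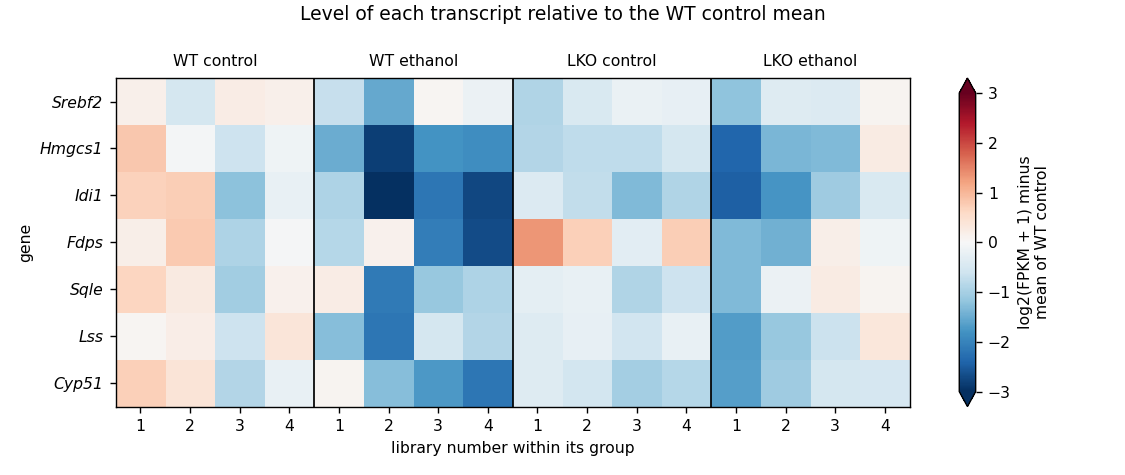
Each cell is log2(FPKM + 1) of 1 transcript (vertical) in 1 library (horizontal, by group and number) minus the mean of the 4 WT control libraries, blue for lower and red for higher. WT ethanol library 2 is pale red for Fdps (218.1 FPKM) and blue for the other transcripts, and LKO ethanol library 1 is blue throughout while library 4 is near 0.

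Whether the ethanol response differed between genotypes was tested as an interaction, the response in LKO minus that in WT. No member was called, with adjusted p from 0.927 to 0.985. In limma no gene of the 11298 was called (0.0%), while 362 genes, 2 of them members, had an unadjusted p under 0.05. All 7 estimates were positive, with a median of 1.04 against 0.09 for all genes. Hmgcs1 had 1.51 (95% interval 0.17 to 2.85) and Idi1 1.93 (0.17 to 3.69). Without WT ethanol library 2 these were 1.23 (SE 0.6) and 1.35 (SE 0.716), and neither interval then excluded 0. With all libraries, intervals for the others included 0: Srebf2 from -0.47 to 1.56, Fdps from -1.61 to 1.78, Sqle from -0.16 to 2.58, Lss from -0.38 to 1.95 and Cyp51 from -0.26 to 2.35. A call in WT and none in LKO is therefore no shown difference between the genotypes. For Fdps the estimate of 0.09 changed sign with several settings, among them -0.35 without WT ethanol library 4, and was 0.58 without WT ethanol library 2. That of Srebf2, 0.55, was 0.23 without the latter library.

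As a mean over both genotypes, Hmgcs1 fell on ethanol with a log2 difference of -1.24 (SE 0.317, adjusted p = 0.0242), and Idi1 fell with -1.56 (SE 0.417, adjusted p = 0.0301). These were the 2 of 7 genes called, against 7.78% of all genes. The Hmgcs1 call was lost without WT control library 1, LKO control library 4 or LKO ethanol library 2 (adjusted p = 0.0579, 0.051 and 0.055). The Idi1 call was lost without any 1 of 9 libraries (WT control 1, 2 and 4, WT ethanol 4, LKO control 1, 2 and 4, LKO ethanol 1 and 2), with adjusted p from 0.0518 to 0.0695. Fdps, at -1.33 (SE 0.401), had an adjusted p of 0.0523 and was called without WT control library 3, WT ethanol library 1 or 2, LKO control library 3 or LKO ethanol library 3 or 4. Of these, WT ethanol library 2 moved it most, to -1.58 (adjusted p = 0.00617). Cyp51, at -0.76 (adjusted p = 0.152), was called without WT ethanol library 1 (0.0272), and Lss, at -0.82 (adjusted p = 0.0802), without WT ethanol library 3 (0.0499) or LKO ethanol library 4 (0.0185). All 7 mean differences were negative (median -0.82, all genes 0.02). Srebf2 had -0.31 (adjusted p = 0.503), the smallest of them, and -0.15 without WT ethanol library 2.

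LKO and WT livers were compared within each diet, which addresses the effect of the Zfp36l1 deletion. On the control diet no member was called and none had an unadjusted p under 0.05, and 0.00885% of all genes were called. Members ran from -0.84 for Idi1 to 0.61 for Fdps, with 6 of 7 negative and a median of -0.51 against -0.10 for all genes. On the ethanol diet again none was called or had an unadjusted p under 0.05, against 0.0797% of all genes called. Here all 7 were positive, from 0.10 for Srebf2 to 1.08 for Idi1, with a median of 0.70 against -0.03 for all genes. These sizes rested in part on WT ethanol library 2. Without it Srebf2 was at -0.21, Lss at 0.11, Sqle at 0.32, Cyp51 at 0.34, Hmgcs1 at 0.50, Idi1 at 0.51 and Fdps at 1.2. As a mean over both diets no member was called or had an unadjusted p under 0.05, and 0.142% of all genes were called. No member had groups of LKO and WT without overlap on either diet, against 9.25% of all genes without ethanol and 2.69% with ethanol. On ethanol, without a test, libraries 1 and 2 gave 7 of 7 negative differences (-1.42 to -0.11, with 1 WT library), and libraries 3 and 4 gave 1 of 7 (-0.11 to 2.41). These sides, too, were drawn from the same expression values. The comparisons share control groups, so their values are given side by side and not as independent results.

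**Figure D3:**
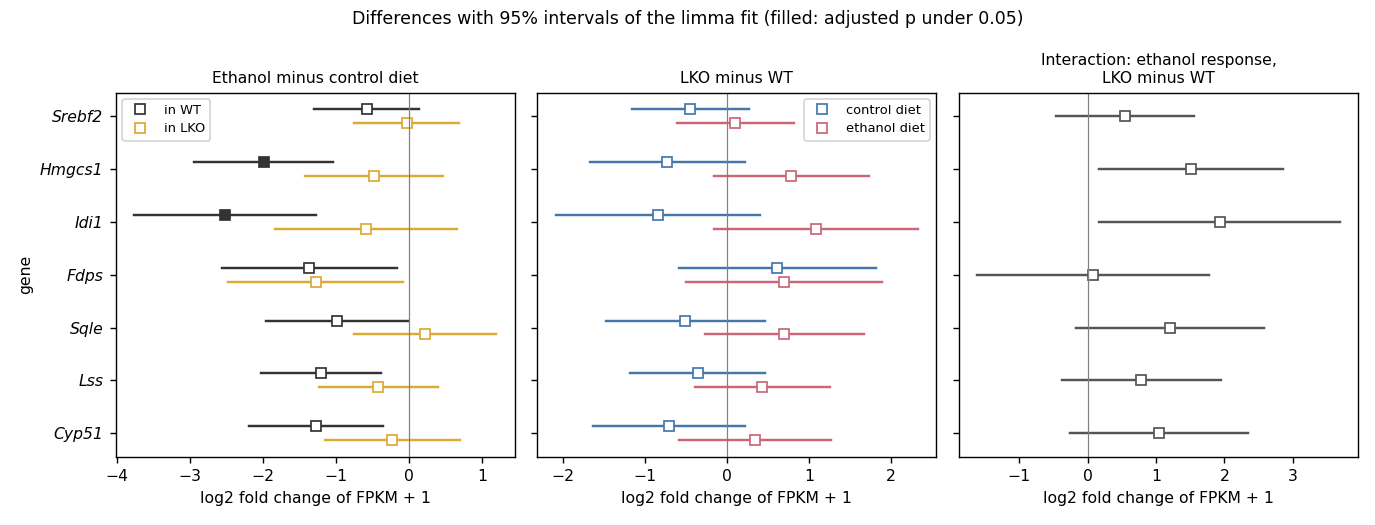
Log2 fold changes of FPKM + 1 (horizontal) for the 7 genes (vertical) with 95% intervals of the limma fit, for ethanol against control diet, LKO against WT, and the difference between the ethanol responses. Filled squares, Hmgcs1 and Idi1 in WT, had an adjusted p under 0.05, and interaction intervals of those 2 genes lie above 0 before adjustment with all 16 libraries, but not without WT ethanol library 2.

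Zfp36l1 binds AU-rich elements, so the 3′ untranslated regions of the members were searched for the heptamer TATTTAT in GENCODE M21. None of the 7 held it, against 29.1% of 10529 tested genes with such a region. The longest annotated regions ran from 55 bases in Fdps to 2411 bases in Lss, with 1462 in Srebf2, 1782 in Hmgcs1 and 1816 in Idi1, against a median of 1112. Among genes of like length, the share with the heptamer was 1.96% for Fdps and 44.5% for Lss. The absence of these letters says nothing of binding at other elements.

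Compared per length, Fdps was the most abundant of the 7 and Lss the least in each of the 4 groups. In WT control liver the order was Fdps, Hmgcs1, Cyp51, Idi1, Sqle, Srebf2 and Lss, with means from 217 ± 99.2 down to 8.65 ± 2.56 FPKM (SD, n = 4). Each neighbour in that order overlapped the next. In LKO control liver the order was Fdps, Hmgcs1, Cyp51, Sqle, Idi1, Srebf2 and Lss, and Fdps, Hmgcs1 and Cyp51 each stood apart from the next gene, while the later neighbours overlapped. Neighbours in both ethanol groups overlapped. Across the 16 libraries, the Pearson correlation of log2(FPKM + 1) over the 21 pairs of members ran from -0.19 to 0.906, with a median of 0.68. Idi1 was most like the rest (median 0.84) and Fdps least (0.432). Without WT ethanol library 2 the least alike was Srebf2, with a median of 0.154. The libraries share their groups and depth, so these values describe covariation only.

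Genes that most resembled the mean of the 7 across the 16 libraries included Msmo1, the sterol methyl oxidase that acts soon after Cyp51 (r = 0.943, and 0.922 over 15 libraries), and Nsdhl, the sterol dehydrogenase that follows it (0.903 and 0.853). Stard4, a cytosolic sterol carrier (0.852 and 0.794), and Insig1, which retains SCAP (0.821 and 0.752), were among the 15 most alike. So were 2 genes of other pathways, Akr1d1, a bile acid synthesis reductase (0.89 and 0.833), and Gsta3, a glutathione transferase (0.849 and 0.787).

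The other enzymes of the route were taken as a list. Of these 14, all tested, 2 fell on ethanol in WT (Nsdhl and Acat2) and none rose, against 4.18% of all genes called. All 14 differences were negative, with a median of -1.0. Acat2, which condenses 2 acetyl-CoA at the head of the route, stood at 39.04, 59.84, 26.1 and 37.75 FPKM in WT control libraries and at 16.74, 21.88, 16.56 and 13.05 FPKM in WT ethanol libraries, with no overlap. Its log2 difference was -1.17 (adjusted p = 0.0316). Nsdhl stood at 23.68, 39.62, 15.39 and 36.72 FPKM in WT control libraries and at 13.65, 2.75, 5.95 and 5.76 FPKM in WT ethanol libraries. These groups too did not overlap, with a log2 difference of -1.98 (adjusted p = 0.0207). Msmo1 had -1.7 (adjusted p = 0.0676). Both calls were lost without WT control library 1, 2 or 4 or WT ethanol library 4, and that of Acat2 also without WT ethanol library 3, with adjusted p up to 0.0752 for Nsdhl and 0.115 for Acat2 among these. In LKO none of the 14 was called on ethanol (all genes 0.425%) and 13 were negative, with a median of -0.54. Acat2 there had -1.07 (adjusted p = 0.128), with LKO control libraries at 44.45, 38.46, 22.21 and 34.56 FPKM and LKO ethanol libraries at 13.13, 12.68, 16.87 and 21.1 FPKM. Its groups did not overlap in LKO either, and without WT ethanol library 2, which enters through the shared spread, its adjusted p was 0.0307. Without WT ethanol library 2, 3 of 14 fell in WT, with Fdft1, squalene synthase, as the third (-1.31, adjusted p = 0.0209), and 1 of 14, Acat2, in LKO, against 9.27% and 3.67% of all genes. As a mean over genotypes 3 of 14 fell, against 7.78% of all genes: Acat2 (-1.12, adjusted p = 0.00301), Nsdhl (-1.49, 0.00792) and Fdft1 (-0.99, 0.0166). Without WT ethanol library 2 that count was 6 of 14, against 20.5% of all genes.

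Among 10 genes of SREBP processing and its regulation, Srebf1 and Insig1 fell on ethanol in WT (2 of 10, all genes 4.18%). Srebf1, the gene of the SREBP form that drives fatty acid synthesis, stood at 45.14, 114.0, 40.04 and 85.38 FPKM in WT control libraries and at 8.10, 5.22, 28.98 and 19.25 FPKM in WT ethanol libraries. The log2 difference was -2.27 (adjusted p = 0.0133), with no overlap. Insig1, itself an SREBP target, stood at 165.6, 147.9, 86.47 and 116.6 FPKM in WT control libraries and at 28.47, 11.32, 60.03 and 22.39 FPKM in WT ethanol libraries. Its groups did not overlap either, with a log2 difference of -2.24 (adjusted p = 0.026). The Srebf1 call was lost without WT control library 2 (adjusted p = 0.0531), and that of Insig1 without WT control library 1, 2 or 4 or WT ethanol library 4 (0.0848, 0.0802, 0.0696 and 0.0625). In LKO, Srebf1 had -1.9 (adjusted p = 0.0909) and Insig1 -1.83 (adjusted p = 0.176). Without WT ethanol library 2 these were 0.0177 and 0.0469, and without LKO ethanol library 4 they were 0.0451 and 0.0285. Insig2, the sterol-sensing partner that SREBP-2 does not induce, rose in LKO. It stood at 42.4, 27.01, 29.05 and 24.84 FPKM in LKO control libraries and at 319.9, 281.7, 276.0 and 101.1 FPKM in LKO ethanol libraries. The groups lay far apart, and Insig2 was the 1 gene of the 10 called in LKO, against 0.425% of all genes (2.85, adjusted p = 0.0469). It was called in 12 of 27 alternatives, and leaving out any 1 of LKO control libraries 1 to 4, LKO ethanol libraries 1 to 3, WT control libraries 1, 2 and 4 or WT ethanol libraries 3 and 4 lost the call, with adjusted p of 0.0519 to 0.184. In WT it stood at 24.05, 34.74, 63.57 and 18.36 FPKM on control diet and at 446.3, 33.59, 84.83 and 130 FPKM on ethanol. WT ethanol library 2 lay among the controls. The WT difference was 1.82 (adjusted p = 0.0951) with that library and 2.4 (adjusted p = 0.0117) without it. As a mean over genotypes Srebf1 (-2.09, adjusted p = 0.00113) and Insig1 (-2.03, 0.00313) fell and Insig2 rose (2.34, 0.00285), which makes 3 of 10 called against 7.78% of all genes. Each of these 3, like Acat2, Nsdhl and Fdft1, was called in 26 of 26 alternatives for that mean.

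**Figure D4:**
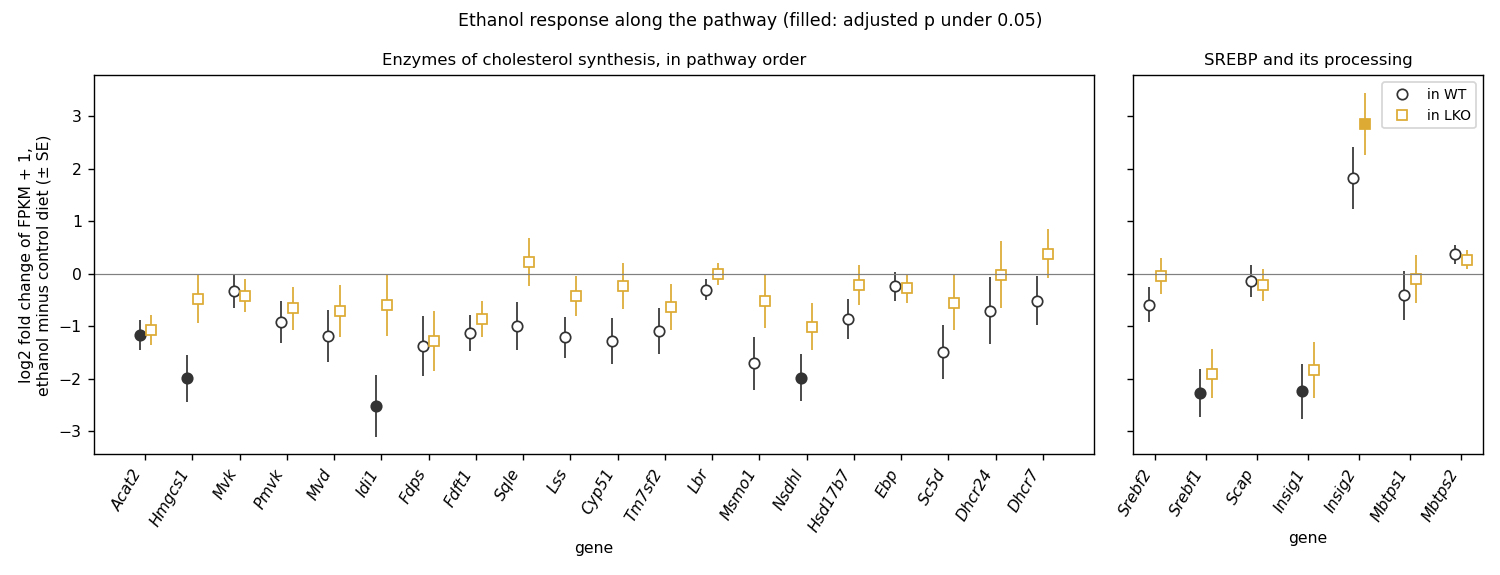
Ethanol minus control diet as log2 fold change of FPKM + 1 with SE (vertical) for 20 enzymes in pathway order and for 7 SREBP genes (horizontal), circles for WT and squares for LKO, filled where the adjusted p was under 0.05. All 20 enzymes lie below 0 in WT, Hmgcs1, Idi1, Nsdhl and Acat2 are filled, and Insig2 lies above 0 in both genotypes.

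Of 7 other reported SREBP-2 targets, 2 fell on ethanol in WT, against 4.18% of all genes called, and all 7 differences were negative (median -1.66). Aacs, which activates acetoacetate in the cytosol, stood at 27.42, 47.61, 11.49 and 49.59 FPKM in WT control libraries and at 9.75, 2.71, 5.72 and 6.72 FPKM in WT ethanol libraries (log2 difference -2.18, adjusted p = 0.0107). Stard4 had -1.77 (adjusted p = 0.0137), and 0.0511 or 0.0527 without WT control library 1 or 2. In a fit of the 2 WT groups alone none of the list genes called in WT kept its call: the adjusted p was 0.0865 for Aacs, 0.0985 for Stard4, 0.0911 for Srebf1, 0.0666 for Insig1, 0.0883 for Nsdhl, 0.155 for Acat2 and 0.217 for Vldlr. With WT ethanol library 2 left out their WT differences were -1.89 for Aacs, -1.36 for Stard4, -1.9 for Srebf1, -1.86 for Insig1 and -1.67 for Nsdhl, and each of these 5 was called. In LKO none was called on ethanol (all genes 0.425%), and all 7 were negative with a median of -0.59. LKO ethanol libraries held 27.43, 13.94, 26.11 and 30.23 FPKM of Aacs, all above the WT ethanol libraries. That genotype difference was 1.86 (adjusted p = 0.125), and 1.57 without WT ethanol library 2. As a mean over genotypes 4 of 7 fell on ethanol, against 7.78% of all genes called, among them Aacs (-1.41, adjusted p = 0.00795), Stard4 (-1.18, 0.00984) and the fatty acid elongase Elovl6 (-1.62, 0.0239). The Elovl6 call was lost without WT control library 2 or 4, LKO control library 1 or 4 or LKO ethanol library 2 (0.0501 to 0.0613).

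Lipoprotein uptake and lysosomal release of cholesterol were taken as a list of 9 genes. Of these, 1 rose on ethanol in WT and none fell, where 4.18% of all genes were called, with 4 positive and 5 negative differences and a median of -0.19. The 1 was Vldlr, a receptor for triglyceride-rich lipoproteins, at 1.09, 1.3, 1.22 and 0.746 FPKM in WT control libraries and at 3.49, 1.23, 3.26 and 5.97 FPKM in WT ethanol libraries. WT ethanol library 2 lay among the controls. The log2 difference was 0.999 (adjusted p = 0.0429), and 1.3 (adjusted p = 0.00271) without that library. It was called in 7 of 26 alternatives and lost when most single libraries were left out (highest adjusted p 0.129, with WT control library 4 left out). The call was also lost with a pseudocount of 0.1 (1.43, adjusted p = 0.0732) and with voom on the recovered reads (1.52, adjusted p = 0.0599). In LKO, Vldlr stood at 0.358, 0.496, 0.346 and 0.147 FPKM in control libraries and at 1.44, 2.88, 1.48 and 1.53 FPKM in ethanol libraries. These groups did not overlap, and the log2 difference was 1.06 (adjusted p = 0.101, and 0.00759 without WT ethanol library 2). It was called in 9 of 26 alternatives, and a pseudocount of 0.1 gave 2.15 (adjusted p = 0.0382) and voom on the recovered reads 2.49 (adjusted p = 0.0443). As a mean over genotypes Vldlr rose by 1.03 (adjusted p = 0.003). For LKO against WT as a mean over diets it had -0.61 (adjusted p = 0.265), and -0.76 (adjusted p = 0.0246) without WT ethanol library 2, where 0.859% of all genes were called. None of 10 genes of LXR signalling, cholesterol efflux and esterification was called in any of the 7 comparisons with all libraries, and single members were called in at most 4 alternatives of a comparison (Abcg8, the sterol exporter subunit, as a mean over genotypes, in 4 of 26). With all 16 libraries no gene of the 5 lists was called between the genotypes on either diet or in the interaction.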

How the data were processed

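RNA-seq of mouse liver was used as deposited, in 16 libraries of 4 groups taken from the treatment labels. Per the submitters' processing notes the tools were fastp, STAR 2.6.1, HTSeq and DESeq2, with build mm10. The annotation and the strand setting of the counting are not given in the sources used here. The authors deposited 1 table of FPKM values. Because FPKM values of a gene are whole multiples of 1 read, reads per library were recovered from the steps: 100% of values lay within 0.1 of a whole read among 20520 genes above 0 in at least 4 libraries.

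Genes with FPKM of at least 1 in at least 4 libraries were kept. In R 4.3.3, limma 3.58.1 (lmFit, eBayes with trend) was fitted to log2(FPKM + 1) for all 16 libraries with group as the only factor, and p-values were adjusted by Benjamini-Hochberg over all 11298 kept genes. Fold changes on this scale understate the change of low genes. Groups carry no shared replicate numbers, and library numbers 1 to 4 follow record order. Intervals are at 95% confidence. Scripts were tested on simulated data.

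The 7 genes and the pathway lists were chosen with earlier results of these data known. From each list at most the 3 genes with the smallest adjusted p in a comparison were named with values. Of the 15 genes most like the 7, those on a list and the first 4 others were to be named, and 2 of these are not reported here. Alternatives changed the pseudocount (0.1), filter, scaling, weights, libraries in the fit and a term for the split within groups, left out each library, and, chosen after seeing the data, used voom on the recovered reads. Gene positions are from GENCODE M21 on GRCm38, promoters from RefSeq on GRCm38.p6.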

Additional observations from a re-analysis of the deposited data

Results flagged for a closer look

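Srebf2 in WT control library 2 lay at 9.09 FPKM, while the other 3 WT control libraries lay between 15.07 and 16.03 FPKM. The gap from this library to the nearest of the others took up a share of 0.89 of the group's range on the log2(FPKM + 1) scale, above the critical value of Dixon's test at the 95% level for 4 libraries. It was the 1 such case among 28 groups of values checked (7 genes in 4 groups), and chance gives about 1 in 20. For the other 6 genes this library was not set apart from its group by the same measure.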

How the results depend on the processing

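Of the values of the 7 genes recomputed over 6 comparisons (all but LKO against WT as a mean over diets), 1049 kept direction and side of the threshold, 26 newly passed it, 25 no longer passed it and 14 changed sign. In WT, ethanol called 2 genes, but 0 with no filter, 1 with FPKM of at least 1 in all libraries (Idi1 then drops out of the test), 4 with array weights, 0 with only the groups compared in the fit, and 0 to 3 when libraries were left out in turn (0 without WT control library 1, 2 or 4, and 1 without WT ethanol library 4). In LKO, array weights called 1 gene (Fdps, adjusted p = 0.0491) in place of 0, where all genes called rose from 48 to 1117. For the mean over genotypes the count of 2 became 0 with no filter, 1 with the filter in all libraries, 5 with array weights, 4 with the side of the split as a term and WT ethanol library 2 left out, and 0 to 4 with single libraries left out (0 without WT control library 1, LKO control library 4 or LKO ethanol library 2). For LKO against WT as a mean over diets, array weights called 1 (Fdps) in place of 0, and the difference changed sign in some alternative for 5 of 7 genes (all but Srebf2 and Fdps). Srebf2 changed sign in LKO on ethanol (range -0.23 to 0.20 with libraries left out) and between genotypes on ethanol (-0.21 to 0.34 with libraries left out, -0.23 with array weights, -0.13 with the side term and without WT ethanol library 2). The Fdps interaction ranged from -0.35 to 0.58 with libraries left out and was -0.15 with the side term. The causes of these changes were not tested. The background moved as well. Over all genes, ethanol in WT called 472 (292 higher, 180 lower), with 307 higher and 425 lower under median-of-ratios factors, 470 and 462 under quantile normalization, 58 in all with only the groups compared, 219 with the filter in all libraries, 253 with equal sums, 283 with no filter, 1724 with array weights, 2229 with the side term and without WT ethanol library 2, and 145 to 1036 with single libraries left out. In LKO the count was 48, between 18 (no filter) and 1206 (side term without that library), and 6 to 410 with single libraries left out. The mean over genotypes called 879 (519 higher, 360 lower), with 583 higher and 741 lower under median-of-ratios factors, 737 and 715 under quantile normalization, 534 in all with equal sums or with the filter in all libraries, 2921 with array weights and 3684 with the side term without that library. Between genotypes, 1 gene on the control diet became 438, 9 on ethanol became 498 and 16 as a mean over diets became 1581 with array weights, and 0 in the interaction became 11. With single libraries left out these counts ran from 1 to 4, 1 to 390, 8 to 99 and 0 to 6, the highest being without WT ethanol library 2 for the first and without WT ethanol library 1 for the others. Median-of-ratios factors moved the median of all genes from -0.10 to 0.01 for LKO against WT without ethanol. No paired analysis was run, because no label says that libraries of different groups form pairs. Numbers in the sample titles are adjacent between diets for some libraries and not for others, and none is shared. Idi1 in WT ethanol library 2 rested on 13 reads, the fewest of any value of the 7 genes.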
